A study of Mus musculus with 12 samples.

Results

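IGHV3-1 and IGHV3-2 are mouse heavy chain variable (V) genes of the IGHV3 family. In the deposited clone table of the myeloma line VQ-D1, they are the best V hits of its 2 clonotypes, both IgG2b. Members were chosen by the deposited V calls, which are themselves read from the sequences: the clonotypes whose best V hit was either gene, and the aligned sequences whose V call held either gene without being led by IGHV3-8. They were then split by the base at V position 80, so the shares of that base are given as a description. They are 2 of the 241 V genes named in any aligned heavy chain sequence of the series. By this rule VQ-D1 held 2 member clonotypes and 5299 member sequences, VQ-D5 held 1 clonotype and 69 sequences, and VQ-D2, 4935 and 4938 held no clonotype but 183, 38 and 79 sequences. The 5299 were 62.0% of the 8545 aligned VQ-D1 sequences with a V call, and the rest had other V calls. VQ-D4 held no member. Its 0 of 1277 counts allow a share of up to 0.235%, and its 0 of 339 aligned sequences with a V call allow up to 0.885%.

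All 6 lines carry the same alleles, Vκ*MYC, NrasLSL Q61R/+ and IgG1-Cre (VQ), in CD138+B220- myeloma cells from bone marrow. Vκ*MYC is a MYC transgene under kappa light chain elements, and NrasLSL Q61R is an activated Nras allele that stays silent until Cre, here produced with IgG1, removes a stop cassette. The primary donor lines are VQ-D1, VQ-D2, VQ-D4 plus VQ-D5, while 4935 and 4938 are cell lines grown from recipients of VQ-D2 and so are not independent of it. Each line has 1 heavy chain library, there is no untreated or normal control, and no test was made, because sequences from 1 library are not replicates. CD138 and B220 were not analysed here, since these libraries hold antibody transcripts. Total counts in the clone tables ran from 373 in 4938 to 4602 in VQ-D1, and aligned sequences with a V call from 223 in 4935 to 27165 in VQ-D2.

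A heavy chain variable region is built by joining a V, a D and a J segment. The join, called the junction or CDR3, is the most variable stretch of an antibody and marks a B cell clone. After antigen contact, somatic hypermutation adds base substitutions across V, so an antibody from a mature plasma cell usually departs from its germline V gene at a few positions that all cells of the clone share. Genes of the IGHV3 family resemble each other closely, and a short piece of a V segment may match several of them equally well. IgG2b is an IgG subclass whose constant region is encoded by Ighg2b.

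In the GRCm38.p6 RefSeq annotation (mm10), Ighv3-1 occupies chromosome 12 from 113964390 to 113964683, a V segment of 294 bases. Ighv3-2 lies at 114033803 to 114034097, spans 295 bases and is annotated as a V segment pseudogene. Whether that annotated copy has the IGHV3-2*02 sequence matched here was not tested. Their starts are 69413 bases apart. The germline sequences below were rebuilt from the germline side of the deposited alignments, numbered from 1 at the first V base, and IGHV3-1*02 could be rebuilt from position 19. In the first pair, capitals mark the 14 positions of 276 compared at which both alleles differ. In the last, which is the VQ-D1 sequence made of the germline IGHV3-2*02 base except at its fixed substitutions, capitals mark those substitutions. They were looked for from position 11 to 284, so the bases outside that range are printed as germline without having been scanned.
IGHV3-2*02: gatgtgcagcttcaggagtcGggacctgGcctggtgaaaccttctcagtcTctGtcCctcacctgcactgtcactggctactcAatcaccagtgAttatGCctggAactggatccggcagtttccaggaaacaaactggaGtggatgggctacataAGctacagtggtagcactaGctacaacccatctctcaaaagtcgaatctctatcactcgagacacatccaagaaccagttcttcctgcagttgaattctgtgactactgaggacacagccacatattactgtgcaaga
IGHV3-1*02: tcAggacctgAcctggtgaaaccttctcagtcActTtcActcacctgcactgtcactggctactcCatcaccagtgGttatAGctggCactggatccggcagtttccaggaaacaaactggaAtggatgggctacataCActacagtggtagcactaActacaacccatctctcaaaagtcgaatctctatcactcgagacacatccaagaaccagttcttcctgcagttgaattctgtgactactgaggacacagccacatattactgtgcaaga
VQ-D1: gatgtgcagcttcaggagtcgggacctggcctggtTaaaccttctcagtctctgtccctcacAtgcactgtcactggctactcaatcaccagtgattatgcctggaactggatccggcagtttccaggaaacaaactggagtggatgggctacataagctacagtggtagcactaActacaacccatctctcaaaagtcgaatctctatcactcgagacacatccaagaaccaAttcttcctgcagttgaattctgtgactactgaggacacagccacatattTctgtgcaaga

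The clone table and the aligned sequences of VQ-D1 named different genes for the same junction. In the clone table, IGHV3-1 held 2646 of 4602 counts (57.5%, exact Clopper-Pearson 95% interval 56.1% to 58.9%, counting error only) and IGHV3-2 the other 1956 (42.5%, 41.1% to 43.9%). IGHV3-1 was the single V hit of its clonotype, with a hit score of 1353.2. The IGHV3-2 clonotype had a higher score, 2135.2, followed by IGHV3-1 at 1996.6 and IGHV3-6 at 1883.8. The IGHV3-2 hit thus led IGHV3-1 by 138.6 score units in that clonotype, whereas it was not listed as a hit in the other. Both clonotypes had the D hit IGHD2-4 (score 55), the J hit IGHJ2 (scores 419.2 and 419.8) and the constant hit IGHG2B (scores 103.9 and 153.1).

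The CDR3 of the pair is shown because it ties them together. Capitals mark the 35 bases that both share.
IGHV3-1 CDR3 of VQ-D1: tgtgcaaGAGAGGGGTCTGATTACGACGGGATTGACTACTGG
IGHV3-2 CDR3 of VQ-D1: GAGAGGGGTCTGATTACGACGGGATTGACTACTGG
IGHV3-8 CDR3 of VQ-D5: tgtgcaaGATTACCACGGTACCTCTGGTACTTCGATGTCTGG
IGHV3-2 CDR3 of VQ-D5: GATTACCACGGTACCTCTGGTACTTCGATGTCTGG
In VQ-D1 the 42-base CDR3 of the IGHV3-1 clonotype began at base 286 of its V reference (length 314). The 35-base CDR3 of the IGHV3-2 clonotype began at base 292 of its own (length 315) and lacked the first 7 bases, which puts it out of frame. In that same clonotype, the IGHV3-1 and IGHV3-6 alignments held 0 bases of the CDR3 (listed start 286, end 285). VQ-D5 repeated the pattern with another V gene. Its IGHV3-2 clonotype had 2 of 2181 counts (0.0917%, 0.0111% to 0.331%), scores of 964.7 for IGHV3-2 and 885.4 for IGHV3-8, a CDR3 start at base 292 and the last 35 of the 42 bases of the IGHV3-8 clonotype. In both libraries, every count called IGHV3-2 therefore had a CDR3 that started at reference base 292 and was 7 bases shorter than that of the leading clonotype.

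The aligned sequences of VQ-D1 carried the long junction. Of 3788 member sequences with a junction, 3358 (88.6%, 87.6% to 89.6%) had exactly the 42 bases of the IGHV3-1 clonotype, 277 differed from it at 1 base and 150 at more. Of these 3788 junctions 3785 had 42 bases and none had 35 (0 of 3788, a limit of 0.0792%), although 3405 ended in the 35 bases of the IGHV3-2 clonotype. The next most frequent junction, with the change G41A counted from its first base, had 30 sequences (0.792%), so that 1 junction alone reached 1%. The short CDR3 was thus seen in the clone table and not among the aligned junctions.

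Which V name a VQ-D1 sequence received followed where its V alignment began. Of the 5299 member sequences, 3491 (65.9%) were called IGHV3-2*02 alone, 308 (5.81%) IGHV3-1*02 alone, 124 (2.34%) IGHV3-1*01 alone, 841 (15.9%) a tie of IGHV3-1*02 with IGHV3-2*02, 421 (7.94%) a tie of IGHV3-1*01 with IGHV3-6*01 and 66 (1.25%) a tie of IGHV3-1*01 with IGHV3-4. The remaining 48 had other ties or alleles. In all, 3923 sequences (74.0%) named 1 allele, 1279 (24.1%) named 2 and 97 (1.83%) named 3, and 879 (16.6%) named both genes.

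Sequences with an E-value (the number of matches as good that chance alone would give, as IgBLAST reports it) under 0.001 numbered 5198 and showed this order most plainly. Of the 1588 that started at positions 1 to 49, 1587 were IGHV3-2*02 alone, as were all 1439 that started at 50 to 99 and 460 of the 461 that started at 100 to 158. All 307 that started at 159 to 176 were IGHV3-1*02 alone. Of the 962 that started at 177 to 237, 841 were the IGHV3-1*02 and IGHV3-2*02 tie and 121 were IGHV3-1*01 alone. Of the 441 that started at 238 or later, 421 were the IGHV3-1*01 and IGHV3-6*01 tie. As rebuilt from the alignments, the germline of IGHV3-1*01 ran 2 bases past that of IGHV3-2*02. In the IGHV3-1*01 and IGHV3-6*01 tie, 419 of the 421 alignments ended at 296. In the IGHV3-1*02 and IGHV3-2*02 tie, 836 of the 841 ended at 294. The V score, which grows with the length of a match, fell along the same order, with a median of 333.7 for IGHV3-2*02 alone, 193.5 for IGHV3-1*02 alone, 128.0 for the tie of both and 54.8 for the IGHV3-1*01 and IGHV3-6*01 tie. Median V identity did not follow it, at 97.4%, 98.4%, 97.6% and 96.8%.

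**Figure D1:**
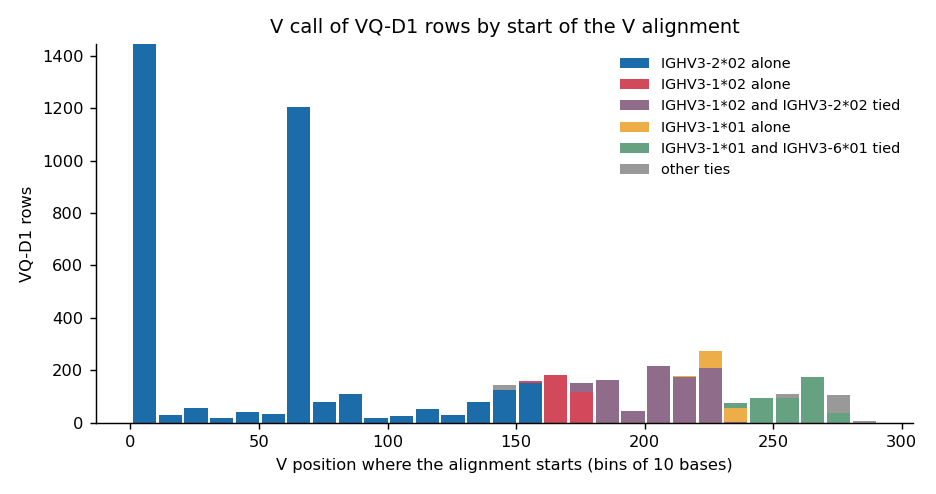
Number of VQ-D1 member sequences (vertical axis) by the V position at which their alignment starts (horizontal axis, bins of 10 bases), coloured by V call. Calls of IGHV3-2*02 alone lie before position 159, calls of IGHV3-1*02 alone lie at 159 to 176 apart from 1 sequence that starts at 19, and ties follow.

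The bases themselves were those of IGHV3-2 wherever the alleles could be told apart, with a single exception. At 13 of the 14 differing positions, between 98.1% and 99.9% of the VQ-D1 sequences that covered the position carried the IGHV3-2*02 base, and at most 1.76% the IGHV3-1*02 base (1446 to 3613 sequences per position, 10 bases left out at each alignment end). At position 21, for example, 1434 of 1446 sequences had the IGHV3-2*02 base and none the IGHV3-1*02 base. At positions 157 and 158 the counts were 3281 and 3276 of 3283. Position 176 went the other way: all 3613 sequences carried G176A (100%, 99.9% to 100%), which is the IGHV3-1*02 base. It is the last position at which the alleles differ, since the 118 positions after it are identical, and the one before it is 158. A sequence that starts at 159 to 176 thus covers position 176 and no other differing position, and each of the 307 sequences that did so matched IGHV3-1*02 at 1 position more than IGHV3-2*02. Sequences that started at 1 to 49 matched IGHV3-2*02 at a median of 12 positions more. Because V calls were made from these same bases, the counts describe the calls and do not test them.

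**Figure D2:**
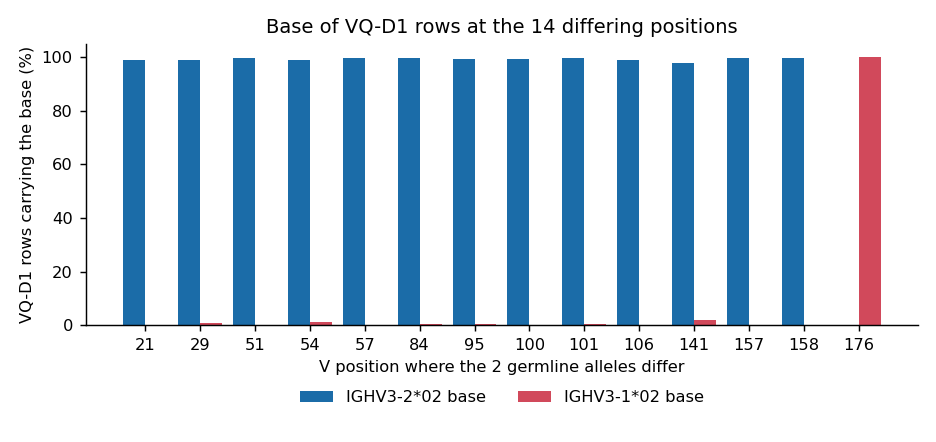
Share of VQ-D1 member sequences with the IGHV3-2*02 base (blue) or the IGHV3-1*02 base (red) at each V position where both alleles differ. Blue bars stand at 98.1% to 99.9% at 13 positions, and the red bar stands at 100% at position 176.

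Another allele, IGHV3-1*01, could be rebuilt at 199 of the IGHV3-2*02 positions, all from position 47 on and some of them from 1 alignment, and differed from it at 12. VQ-D1 carried the IGHV3-2*02 base at 10 of them. Position 176 again had the IGHV3-1 base, and at position 234 the sequences carried neither, with 0% for the germline base of IGHV3-2*02 and 0.0583% for that of IGHV3-1*01. Whether these mice carry an IGHV3-2 allele that has this base at 176 in the germline was not tested.

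Measured against IGHV3-2*02, the VQ-D1 V segment had 5 fixed substitutions, defined as bases in more than 90% of the distinct V sequences (those with at least 200 aligned V bases, each different V stretch counted once). They were G36T (1073 of 1079, 99.4%), C63A (1112 of 1114, 99.8%), G176A (1389 of 1389, 100%), G234A (524 of 526, 99.6%) and A284T (370 of 378, 97.9%). With V read in frame from position 1, G36T, C63A and G234A were silent, whereas G176A and A284T changed the amino acid at codons 59 and 95. Of these 5 only G176A is also the base of IGHV3-1*02, so the other 4 depart from both alleles. The mean V identity of the 1389 distinct sequences was 96.4% ± 2.36 (SD over sequences of 1 library) with a median of 97.0%, and of all 3010 sequences of that length 97.1% ± 1.78.

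Partial substitutions, carried by 10% to 90% of the distinct V sequences, were few: 2 of 274 positions tested (0.73%), A80G and G217A. A80G, the difference the members were split by, was in 179 of 1331 distinct V sequences (13.4%, 11.7% to 15.4%). Substitution here means only a base unlike the germline side of the alignment, whatever its source. Of the 1117 sequences with A80G, 1116 had V alignments that started at 61 to 80, as described below. G217A lay just inside the band with 143 of 1379 (10.4%, 8.81% to 12.1%), and G228A just outside it with 117 of 1218 (9.61%). At the other 267 positions under 10%, the commonest other base had a median share of 0.624%.

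**Figure D3:**
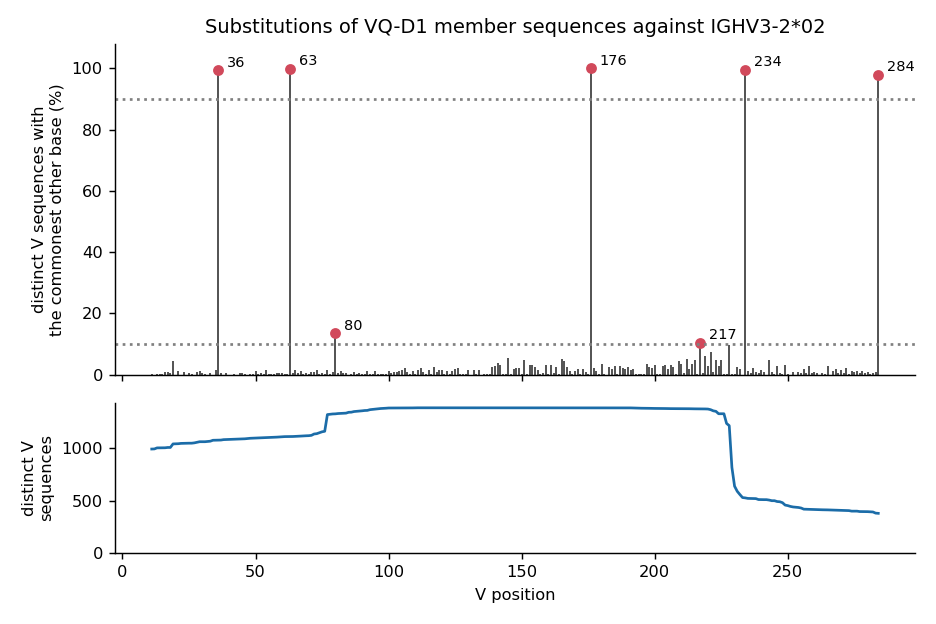
Upper panel: share of distinct VQ-D1 V sequences with the commonest base other than that of IGHV3-2*02, by V position, with dotted lines at 10% and 90%. Lower panel: number of distinct V sequences covering each position. Positions 36, 63, 176, 234 and 284 exceed 90%, positions 80 and 217 lie between the lines, and coverage falls after about 228.

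The share of A80G depended on what was counted. Among all 2907 member sequences that covered position 80, 1757 (60.4%) had the germline base, 1117 (38.4%) had A80G and 33 had another base. The A80G sequences held 192 distinct V stretches, or 5.82 sequences each, against 1156 and 1.52 for the germline base. Counted by distinct whole sequences of at least 200 V bases, A80G reached 1029 of 2433 (42.3%).

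A80G went with the start of the alignment. Only 1 of the 1623 sequences whose V alignment started at position 60 or earlier carried A80G (0.0616%, 0.00156% to 0.343%), against 1116 of the 1284 that started at 61 to 80 (86.9%, 84.9% to 88.7%). Of the 1026 that started exactly at 67, 995 did (97.0%), and of the 60 that started at 65, 55 did (91.7%). Neighbouring starts were split between both patterns. All 27 sequences that started at 62, all 6 at 63 and 13 of 17 at 75 carried A80G, against 3 of 20 at 66 and 0 of 16 at 68 to 69. Of the 24 sequences with the leading junction whose V ran from position 18 or earlier to 294, all 24 had the germline base and all 24 were productive. With any junction and V from position 1 to 294 there were 15 sequences. All 15 had the germline base, 8 had the leading junction and 13 were productive.

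**Figure D4:**
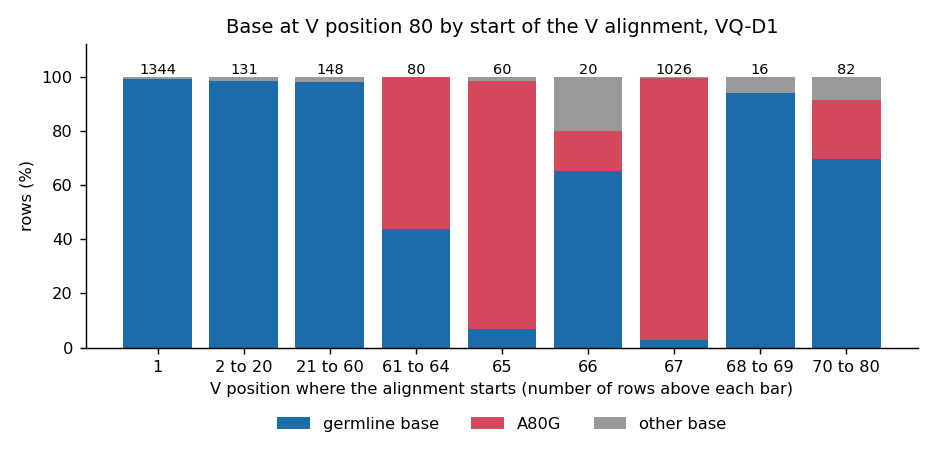
Share of VQ-D1 member sequences with the germline base, A80G or another base at V position 80, by the position at which the V alignment starts; the number of sequences stands above each bar. A80G makes up 97.0% at start 67 and 91.7% at start 65, and nearly none at starts 1 to 60.

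Other differences close to position 80 came with A80G as a block. The germline stretch from position 67 and the start of the commonest A80G sequence (961 of the 995 that start at 67 share these 40 bases) are printed to show it, with capitals at positions 69 and 80 in the first and at each differing base in the second.
IGHV3-2*02 from 67: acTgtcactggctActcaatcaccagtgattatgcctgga
VQ-D1 with A80G: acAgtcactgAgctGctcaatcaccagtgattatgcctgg
Over the first 17 columns the alignment had 3 differences, T69A, a base inserted after position 76 and A80G, and from position 83 on it followed V again. T69A was in 1098 of 1099 A80G sequences that covered position 69 (99.9%) and in 17 of 1700 with the germline base at 80 (1%). The insertion was in 1093 of the former (99.5%) and 14 of the latter (0.824%). T69A and the insertion lie within 10 bases of the alignment's start in most A80G sequences, where the position scan left bases out. In 978 of the 995 sequences that start at 67, all 3 differences were aligned in just this way.

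The 17 bases from that start to position 82, acagtcactgagctgct, were also found away from this V segment. They stood in 1669 of 9195 VQ-D1 sequences and in none of the other 5 libraries, where 0 sequences allow up to 0.011% in VQ-D2, 0.013% in VQ-D5, 0.363% in 4938, 0.877% in VQ-D4 and 1.02% in 4935. In 1067 of the 1669 they were followed directly by V positions 83 to 91, in 736 of these as the very first bases of the sequence. In 426 they were followed by another stretch, of which 81 were members, and in 119 by yet another, of which 3 were members. Of the 501 that were no members, 367 were called IGHV9-3*01. On the opposite strand, the reverse complement of the 17 bases stood behind the leading junction in 548 sequences, 260 bases after its end (lower and upper quartiles both 260), and in 526 of these (96.0%) it was joined to the reverse complement of V positions 83 to 91. The same 17-base join to V thus occurred in both orientations, often within the same sequence. The 17 bases stood in 1669 VQ-D1 sequences, their reverse complement in 1056 and either of them in 2006. Of the 1117 A80G sequences, 666 (59.6%) had the reverse complement after V. The counts for each orientation are therefore not separate sightings. Which molecule the 17 bases belong to was not tested.

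Sequences with A80G and with the germline base also differed in layout. Of the 1117 with A80G, 1079 (96.6%) had the 17 bases at their V start; these bases include position 80, so the germline class has no such count to compare. Of the A80G sequences 1103 (98.7%) reached the V end at 294, and 754 (67.5%) had V as their first base. With the germline base, 427 (24.3%) reached 294 and 1332 started at position 1, with a median of 206 bases before V. In 1511 of the 1757 (86.0%, 84.3% to 87.6%) those preceding bases contained the reverse complement of the last 20 bases of the leading junction, against 177 of 1117 (15.8%, 13.8% to 18.1%) with A80G. The opposite order was counted too. The reverse complement of V positions 83 to 102 stood after the V alignment in 704 of 1117 A80G sequences (63.0%, 60.1% to 65.9%) and in 166 of 1757 with the germline base (9.45%, 8.12% to 10.9%). The room for such stretches differed, since 754 of the A80G sequences had no bases before V. After V, 1253 of the 1757 with the germline base (71.3%) had at most 2 bases. Both classes thus hold sequences with stretches of the same transcript on opposite strands. These lay before V in most of the germline class and after V in most of the A80G class. That is the side on which each class has more sequence, so the shares do not separate the base from the layout. The strand flag did not show the opposite-strand stretches: 7 A80G sequences (0.627%) and 31 with the germline base (1.76%) were marked as reversed.

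A junction was given for 1106 of the A80G sequences (99.02%, 98.2% to 99.5%) and for 325 of the others (18.5%, 16.7% to 20.4%). Most of the others ended within 2 bases of V, as given above, and had no room for one. Among alignments that start at 61 to 80, a junction was given for 1106 of 1116 (99.1%) with A80G and 150 of 151 (99.3%) with the germline base. Where it was given it was the same junction at about the same rate, with 885 of 1106 (80.02%, 77.5% to 82.3%) and 257 of 325 (79.1%, 74.2% to 83.4%) carrying the leading 42 bases. The intervals overlap, but they cover counting error only. Frame separated the classes instead, in numbers close to those of the base inserted after position 76 (1093 with A80G and 14 others). The frameshift flag and the productive call are therefore not read as differences separate from that block. A V frameshift was marked in 1092 A80G sequences (97.8%) and in 14 others (0.797%), and among sequences with the leading junction 16 of 885 with A80G (1.81%) were productive against 240 of 257 with the germline base (93.4%) and 2194 of 2202 that did not cover position 80 (99.6%). Within alignments that start at 61 to 80, where both classes reach position 294 at the median, 16 of 885 with the leading junction (1.81%) were productive with A80G and 110 of 124 (88.7%) with the germline base.

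**Figure D5:**
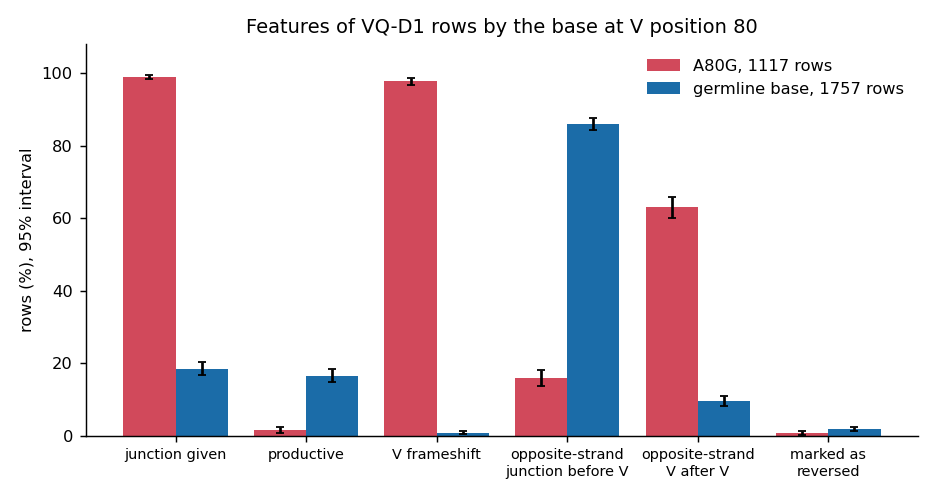
Share of VQ-D1 member sequences with A80G (red) and with the germline base at V position 80 (blue) that have each feature, with exact 95% intervals for counting error. A V frameshift is marked in 97.8% of the A80G class and 0.797% of the germline class. An opposite-strand junction before V is found in 15.8% and 86.0%, and opposite-strand V after V in 63.0% and 9.45%. These shares are bounded by layout: 67.5% of the A80G class has no bases before V, and 71.3% of the germline class has at most 2 after it.

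Beyond that block, both classes carried the fixed substitutions that they covered. G176A was in all 1117 A80G sequences and in all 1755 others that covered it, G234A in 1115 of 1115 and 588 of 590, and A284T in 1099 of 1103 (99.6%) and 423 of 427 (99.1%). Mean V identity was 97.2% ± 1.02 (SD over 1117 sequences) with A80G and 97.0% ± 1.96 (SD over 1757) with the germline base. Among alignments that start at 61 to 80 the order was the other way, with 97.2% ± 0.519 (SD over 1116) with A80G and 98.3% ± 1.57 (SD over 151) with the germline base. These spreads are over sequences of 1 library, many of which share a V stretch, and do not measure a difference between the classes. A80G, and T69A where covered, count as mismatches in the first class. Positions 36 and 63 lie before nearly all A80G alignments and could not be compared. Of the 210 positions with at least 20 distinct V sequences in each class, 2 (0.952%) differed by 10 percentage points or more, and 0 of 212 (0%) did so when every sequence was counted. The pair was G217A, with 1 of 179 (0.559%) against 140 of 1124 (12.5%), and G228A, with 1 of 178 (0.562%) against 114 of 969 (11.8%). Both were more frequent in the germline class. Both moved with the 3′ end of the alignment, since G217A was in 129 of 850 distinct V sequences (15.2%) that end within 25 bases of it and in 14 of 529 (2.65%) that end farther away, and G228A in 109 of 719 (15.2%) and 8 of 499 (1.60%). In 1253 of the 1757 germline-base sequences (71.3%) V ran to within 2 bases of the end of the sequence, against 0 of 1117 with A80G (upper bound 0.33%).

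Reading along V, the leading junction was also less frequent among the longest V alignments. With an E-value under 0.001, it made up 135 of 177 junctions (76.3%, 69.3% to 82.3%) for starts at 1 to 60 and 1549 of 1848 (83.8%, 82.1% to 85.5%) for 61 to 158, against 292 of 306 (95.4%, 92.4% to 97.5%) for 159 to 176, the sequences called IGHV3-1*02, and 907 of 958 (94.7%, 93.1% to 96.0%) for 177 to 237. By V call the share was 83.2% for IGHV3-2*02 alone and 94.3% for the IGHV3-1*02 and IGHV3-2*02 tie. All these classes led with the same junction, whichever gene they were named for.

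Outside VQ-D1 the member sequences were of another kind. VQ-D2, VQ-D5, 4935 and 4938 together held 369, and 326 of these aligned over 23 V bases only. The stretch most of them share is printed beside the germline it was matched to, with capitals at the 5 bases that differ.
Germline from 141 to 163: gtggatgggctacataagctaca
Member sequences: gtggatgggTGGcaGaagcCaca
Of the 369, 321 aligned to V positions 141 to 163, and 319 of these had exactly the bases shown. The median V identity was 78.3% in each of the 4 libraries, the median score 22.1, and median E-values were 8.1 in VQ-D2, 10.01 in VQ-D5, 9.66 in 4935 and 8.89 in 4938, which means that as many matches of this quality are expected by chance. By contrast the median in VQ-D1 was 1.99e-92. An E-value under 0.001 was found for 5198 of 5299 sequences in VQ-D1 and for 1 of the 369 elsewhere.

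These short matches lay mostly on the reverse strand and in sequences assigned to the kappa locus. Of the 369, 334 were marked as reversed and 304 had the locus IGK, against 78 (1.47%) and 21 of 5299 in VQ-D1. VQ-D1 held 17 alignments of the same 141 to 163 span. The share of V-called sequences that were members was 17.04% in 4935 (38 of 223) and 11.0% in 4938 (79 of 721), against 0.674% in VQ-D2 (183 of 27165) and 0.30% in VQ-D5 (69 of 22979), but the clone tables of 4935, 4938 and VQ-D2 gave no count to either gene (0 of 411, 373 and 2568, which allow up to 0.73%, 0.804% and 0.117%). The exception was a VQ-D5 sequence called IGHV3-1*01 and IGHV3-6*01, which aligned over positions 243 to 294 with 94.2% identity and carried the junction of the IGHV3-8 clonotype. No aligned member sequence outside VQ-D1 had 200 V bases.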

How the data were processed

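Heavy chain libraries of 6 mouse lines, 1 per line, were analysed; the light chain tables were not used here. Libraries covered full-length chains, per the labels' protocols, on mm10, per the submitters' processing notes. The deposited clone tables give a count and a fraction per clonotype with V hits and a hit score, in the column format of MiXCR, per the file headers. The sources used here do not say if 1 count stands for 1 read or for 1 molecule. The deposited aligned tables give, in columns that IgBLAST writes, V calls, V identity in percent, a V score, an E-value and alignment positions, per the file headers; the sources used here give neither its version nor the germline set.

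Germline alleles were rebuilt from the germline side of the alignments. Distinct V sequences with at least 200 V bases were used, leaving out 10 bases at each alignment end and requiring 20 sequences per position and class. Shares have exact Clopper-Pearson 95% intervals, and a count of 0 the limit of 3 counts. Both cover counting error only, because amplified copies are not independent molecules. Upper bounds given as such are those of the exact interval. The position scan was tested on simulated data, with linked substitutions planted downstream of position 80. There the base at position 80 was drawn without regard to the alignment start. That simulation does not cover inserted bases or differences near an alignment start, such as T69A. Named were the members, tied alleles, positions substituted in at least 10% of distinct VQ-D1 sequences or differing by 10 points with the base at position 80, positions where alleles differ, and junctions of at least 1%. G228A at 9.61%, G41A, the 17 bases and the features compared by the base at position 80 were chosen after their values were seen. The members and lists were chosen with earlier results of these data known. The tools were scipy 1.17.1, numpy 2.4.6, pandas 2.3.3 and matplotlib 3.10.9 under Python 3.11.15.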

Additional observations from a re-analysis of the deposited data

How the results depend on the processing

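No paired analysis was possible because each line has 1 heavy chain library and no test was made. Of 72 values under other settings, 39 stayed within the interval, spread or 1.5-fold range of the reported value and 33 moved. Those 39 include the clone table shares with any gene of a tie, all equal to the reported value, and shares of 0 that stayed 0. The 39 are therefore no measure of robustness. Restricted to in-frame clonotypes, IGHV3-1 took 100% of VQ-D1 and IGHV3-2 0% of VQ-D1 and of VQ-D5. By the first gene of the aligned sequences, IGHV3-1 took 21.04% of VQ-D1, 0.652% of VQ-D2, 0.296% of VQ-D5, 17.04% of 4935 and 11.0% of 4938, and IGHV3-2 took 40.9% of VQ-D1 and 0% of VQ-D5. With any gene of a tie, which was added after seeing the data for the aligned sequences, IGHV3-1 took 21.1%, 0.67%, 0.30%, 17.04% and 11.0% of the same libraries, and IGHV3-2 took 51.2% of VQ-D1, 0.545% of VQ-D2, 17.04% of 4935 and 11.0% of 4938. The mean V identity of VQ-D1 stayed between 96.4% and 97.1%.

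The share of A80G, 13.4% as reported, was 38.8% over every sequence, 23.5% over V sequences seen at least 2 times, 0% at a minimum of 250 V bases, 0.0891% with 20 bases left out at each end and 0% among the 19 distinct V sequences marked as reversed. Alternatives chosen after seeing the data gave 42.3% over distinct whole sequences, 0.0891% for alignments starting at or before position 60 and, with no bases left out at the ends as well, 78.2% for later starts. Positions differing between the classes numbered 10 at 5 points, 0 at 20 points and 0 over every sequence, and partial positions 8 at 5% to 95%, 0 at 20% to 80% and 1 over every sequence. Leaving out 20 bases at each end removes every alignment that starts after position 60 by construction, and a minimum of 250 V bases does the same for alignments that end at 294; other causes were not tested.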
